A study of Mus musculus with 20 samples.

Results

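Islet gene expression was compared between mice that lacked either mitofusin in β-cells and controls, to find mRNAs that moved the same way in both lines. The comparison used 15 of the 20 RNAseq libraries of the study, 4 of β-Mfn1KO, 5 of β-Mfn2KO and 6 of Ctrl islets, and each line carried equal weight in the mean whatever its number of libraries. The other 5 libraries, of β-Mfn1/2DKO islets, entered the same fit and its estimate of the spread, and their values are set beside the shared genes. β-Mfn1KO mice carried homozygous loxP alleles around exon 4 of Mfn1, β-Mfn2KO mice around exon 6 of Mfn2, and β-Mfn1/2DKO mice around both, each together with the Ins1-Cre allele on the C57BL/6N background. The labels name the Ctrl genotype wild type, whereas the study combined mice that had only the Cre and mice that had only floxed alleles, and no source gives the kind of each Ctrl library. A shift shared by both lines can therefore come with loss of either mitofusin or with the Cre allele, and these cannot be told apart here. All mice were 12 weeks old. Ctrl held 3 female and 3 male libraries, β-Mfn1KO 3 and 1, and β-Mfn2KO 2 and 3. Whole islets were isolated with collagenase and cultured for a day before RNA was taken, so that cells in which Ins1-Cre is not active are part of every library.

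Mitofusins are GTPases of the outer mitochondrial membrane that tether neighbouring mitochondria and drive their fusion, and Mfn2 also sits at contacts between mitochondria and the endoplasmic reticulum. In β-cells, mitochondria couple glucose metabolism to insulin release through ATP. Ins1-Cre places the recombinase at the Ins1 gene itself, which limits it to β-cells. Mice carry a further insulin gene, Ins2, on another chromosome.

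None of the 75-base stretches of Mfn1 or Mfn2 transcripts occurs in another gene (0%), so their counts are not shared through sequence. Since counts are summed over a whole gene, a message that lacks the excised exon is still counted.

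Depth was 12.4 to 20.3 M counts in Ctrl, 15.7 to 16.7 M in β-Mfn1KO and 15.1 to 59.5 M in β-Mfn2KO, where 2 libraries exceeded 40 M. Values below are normalized counts, which are counts scaled by TMM (the trimmed mean of M-values normalization of edgeR), or log2 fold changes with their standard error (SE) from the quasi-likelihood test of edgeR. Its p-values were adjusted by Benjamini-Hochberg over 28632 genes. Called genes passed both an adjusted p of 0.05 and a change of 1.5-fold, up or down. Ctrl replicate 1 was the lowest of the Ctrl libraries for Eno1b, Zfp990 and Masp2, and values without it are given below where they change a call.

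Hardly any mRNA moved in both lines. Across all genes the mean of both lines differed from Ctrl for 4 called genes (percent called 0.014%), of which Rbm20 was the only higher one and 3 were lower, Ins1, Mfn1 and Eno1b. With the adjusted p alone there were 6 (0.021%), the others being Mfn2 and mt-Nd6. In only 2 of the called genes, Ins1 and Rbm20, did each line move the same way at an unadjusted p under 0.05 (0.00699%). At an unadjusted p under 0.05 the mean of both lines was higher than Ctrl in 471 genes (1.65%) and lower in 559 (1.95%), or 3.60% in all. The low number of calls was not matched by wide errors at well-counted genes. Among the 12191 genes whose mean reached 100 normalized counts, 11669 (95.7%) had a 95% confidence interval that lay inside a 1.5-fold change either way, and 12044 (98.8%) one inside a 2-fold change. Their median SE was 0.0674 on the log2 scale.

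**Figure D1:**
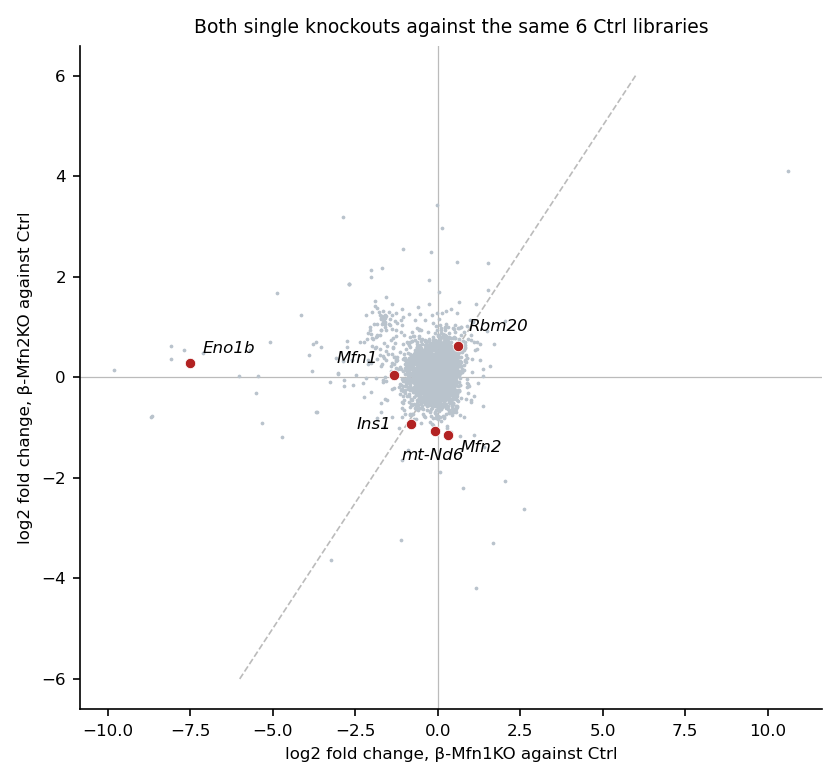
Each point is a gene averaging 20 or more normalized counts, with its log2 fold change in β-Mfn1KO (horizontal axis) and in β-Mfn2KO (vertical axis), both against the same 6 Ctrl libraries. Red points are the 6 genes with an adjusted p under 0.05 for the mean of both lines, and the dashed line marks equal change. Ins1 and Rbm20 lie beside the dashed line, whereas Mfn1 and Eno1b lie at 0.04 and 0.28 on the vertical axis, and mt-Nd6 and Mfn2 at −0.09 and 0.31 on the horizontal one.

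Ins1, which encodes one of the mouse preproinsulins, was the mRNA most clearly reduced in both lines. It stood at 1.07 to 1.96 M normalized counts in Ctrl (median 1.34). In β-Mfn1KO it was at 0.808, 0.844, 0.658 and 0.961 M, and in β-Mfn2KO at 0.845, 0.73, 0.716, 0.828 and 0.65 M. All 9 knockout libraries were below all 6 Ctrl libraries. The log2 fold change of the mean of both lines was −0.88 (SE 0.11, adjusted p = 0.00096, 95% interval −1.11 to −0.64), or 54.4% of Ctrl. The lines had −0.82 (SE 0.14) and −0.94 (SE 0.13), and the difference between them was −0.12 (SE 0.15, adjusted p = 0.754). Ins1 (ENSMUSG00000035804) lies on GRCm38 chr19:52264297-52265476, plus strand. In bulk islets fewer β-cells and less mRNA per β-cell cannot be told apart, so Ins1 was also set against Ins2 within each library.

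Ins2 did not move with Ins1. It ranged from 3.95 to 6.53 M normalized counts in Ctrl (median 4.74). In β-Mfn1KO it was at 5.8, 5.95, 4.78 and 6.11 M, and in β-Mfn2KO at 5.88, 4.9, 4.45, 5.51 and 4.22 M, so that the groups overlapped. Its log2 change was 0.11 (SE 0.11, 95% interval −0.13 to 0.34). Of the counts of both insulin genes, Ins1 made up 22.6 ± 0.880% in Ctrl (SD, n = 6), 12.6 ± 0.678% in β-Mfn1KO (SD, n = 4) and 13.2 ± 0.486% in β-Mfn2KO (SD, n = 5). Library by library the share was 21.85, 21.26, 23.38, 23.38, 23.10 and 22.38% in Ctrl, 12.23, 12.43, 12.11 and 13.58% in β-Mfn1KO, and 12.55, 12.96, 13.86, 13.05 and 13.34% in β-Mfn2KO. Every Ctrl library was thus above 21%, and no knockout library reached 14%. The mean of both lines minus Ctrl was −9.69 percentage points, with p = 2.1e-05 in the exact permutation test (two-sided) over the 630630 assignments of the 15 libraries to the 3 groups. The lines differed from each other by 0.565 points, with p = 0.198 in the exact permutation test over 126 splits. The widest 95% Wilson interval of a library's share spanned 0.125 points, which covers counting error only. Both insulin genes together held 14.96 ± 2.68% of all counts in Ctrl (SD, n = 6), 14.96 ± 1.31% in β-Mfn1KO (SD, n = 4) and 13.8 ± 1.35% in β-Mfn2KO (SD, n = 5), and the exact permutation test of the mean of both lines gave p = 0.586. No 75-base stretch of Ins1 or Ins2 occurs in another gene (0% each), so reads of that length can tell them apart.

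The sequence upstream of Ins1 is shown because Ins1-Cre lies at this gene and because β-cell transcription factors are known to act there. The 250 bases before its start (RefSeq, GRCm38.p6, chr19:52264047-52264296, plus strand) hold 3 matches to TAAT, the core of many homeodomain sites, and 2 matches to CANNTG, the E-box, both read on both strands and marked in capitals.
Ins1 upstream: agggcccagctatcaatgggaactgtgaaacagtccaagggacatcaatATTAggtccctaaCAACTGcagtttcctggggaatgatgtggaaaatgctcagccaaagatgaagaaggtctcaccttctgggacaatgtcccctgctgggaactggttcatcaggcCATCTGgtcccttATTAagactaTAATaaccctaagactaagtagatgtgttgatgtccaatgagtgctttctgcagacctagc
No match of one motif overlaps one of the other. Among the 32851 RefSeq promoters searched over the same length, 54.9% hold TAAT and 66.2% hold CANNTG, so that these matches are common.

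Rbm20, which encodes an RNA-binding protein best known as a splicing regulator of titin in the heart, was the only mRNA called higher. It stood at 341 to 471 normalized counts in Ctrl (median 443). In β-Mfn1KO it was at 592, 575, 753 and 663, and in β-Mfn2KO at 657, 583, 759, 616 and 610. The lowest knockout library was above the highest Ctrl library. The log2 fold change of the mean of both lines was 0.63 (SE 0.09, adjusted p = 0.0023, 95% interval 0.45 to 0.81), or 155% of Ctrl. It was 0.63 (SE 0.10) in each line, and the lines differed by −0.01 (SE 0.11, adjusted p = 1.0). Rbm20 (ENSMUSG00000043639) lies on GRCm38 chr19:53677306-53867080, plus strand. No 75-base stretch of it is shared with another gene (0%). Gm16299 lies within Rbm20 on the opposite strand, with 9.45% as many counts and a log2 fold change of −0.55 in the mean of both lines, and no source states whether the counting used strand. The change of Rbm20 was close to the 1.5-fold threshold (0.585 on the log2 scale). Without Ctrl replicate 5 or replicate 6 its log2 fold change was 0.58 in both cases (adjusted p = 0.0092 and 0.0113), and it was then no longer called.

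**Figure D2:**
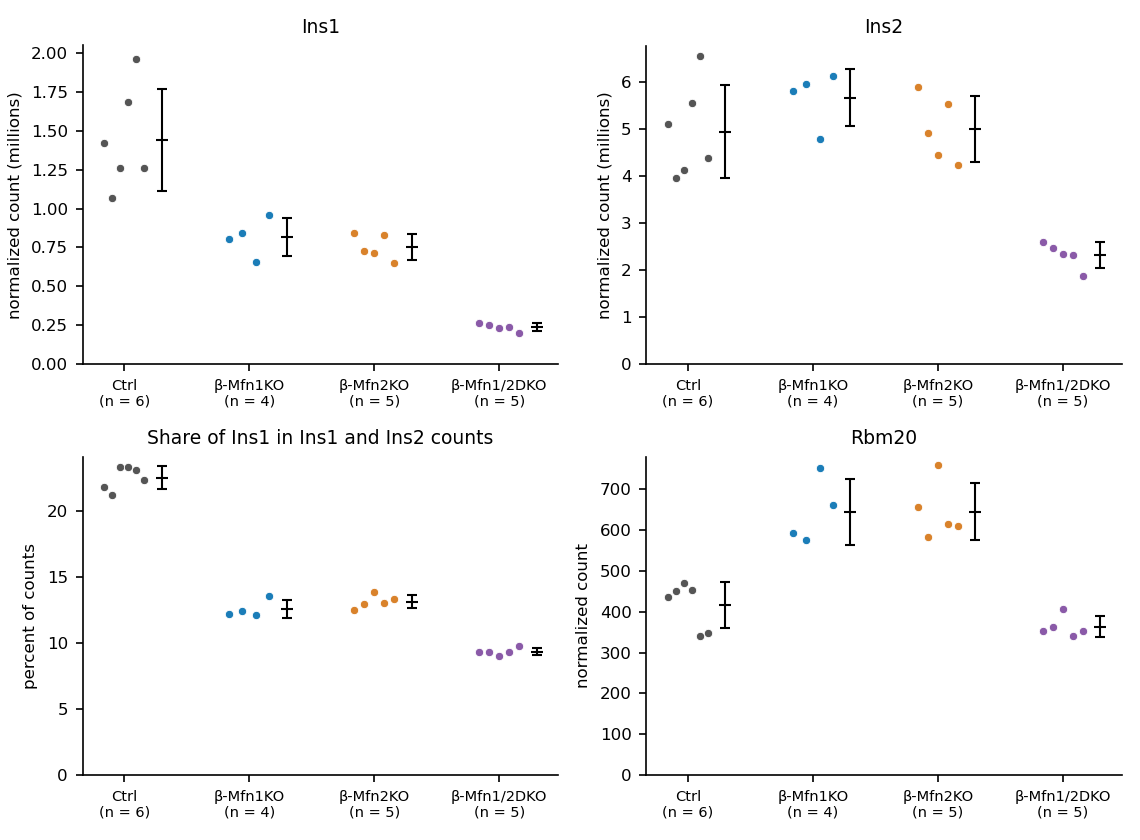
Normalized counts of Ins1 and Ins2 in M, the share of Ins1 in the counts of both insulin genes in percent, and normalized counts of Rbm20, with 1 point per library and the mean ± SD beside each group. Ins1 and its share are lower and Rbm20 is higher in all 9 single-knockout libraries than in any Ctrl library, Ins2 overlaps, and β-Mfn1/2DKO lies lowest for Ins1 but overlaps Ctrl for Rbm20.

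The β-Mfn1/2DKO libraries also carried Ins1-Cre, and in them these genes parted. Ins1 fell further, to 0.266, 0.252, 0.232, 0.239 and 0.202 M normalized counts, or −2.60 against Ctrl on the log2 scale (SE 0.14, adjusted p = 5.1e-11). Against the mean of both single knockouts it was −1.72 (SE 0.13, adjusted p = 5.6e-09). Ins1 made up 9.36 ± 0.285% of the counts of both insulin genes there (SD, n = 5). Rbm20 stood at 353, 363, 406, 339 and 354. These overlapped Ctrl, with 1 library just below the lowest Ctrl library of 341. It had −0.20 against Ctrl (SE 0.10, adjusted p = 0.185) and −0.83 against the mean of both single knockouts (SE 0.09, adjusted p = 6.6e-07). Ins2 had −1.09 against Ctrl (SE 0.13, adjusted p = 4.5e-06). The comparison with the single knockouts was added after values were seen. The β-Mfn1/2DKO libraries held 65.5 to 122.9 M counts, more than any single-knockout library, and the part of depth in these values was not tested.

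Both shared genes lie on chromosome 19, with the starts of Ins1 and Rbm20 1.41 Mb apart. The genes around Ins1 were therefore counted. Within 5 Mb of Ins1 68 genes were tested, of which 38 averaged 20 or more normalized counts, and 2 had an adjusted p under 0.05, Ins1 and Rbm20 themselves. No other gene of this window had an unadjusted p under 0.05, and the 2 make up 2.94% of the window. Over all genes 0.021% had an adjusted and 3.60% an unadjusted p under 0.05. Between Ins1 and Rbm20 lie 19 tested genes. The 10 of them with a mean of at least 20 had log2 fold changes from −0.19 to 0.16, with a smallest unadjusted p of 0.0783. Over the 36 other well-counted genes of the window the range was −0.55 (Gm16299) to 0.16. Among those nearest to Rbm20, Smc3, a cohesin subunit, had −0.07 (SE 0.05) and Pdcd4, an inhibitor of translation, −0.0033 (SE 0.068). Around the targeted genes the counts were 110 genes tested within 5 Mb of Mfn1 and 180 within 5 Mb of Mfn2, with 1 at an adjusted p under 0.05 in each window, the targeted gene itself. At an unadjusted p under 0.05 there were 6.36% and 7.78% of them. The lines differed from each other there more often, at an adjusted p under 0.05 in 5 of the 110 genes around Mfn1 and in 16 of the 180 around Mfn2, the targeted genes included, against 96 of all 28632 (0.335%). Around Ins1 0 did.

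**Figure D3:**
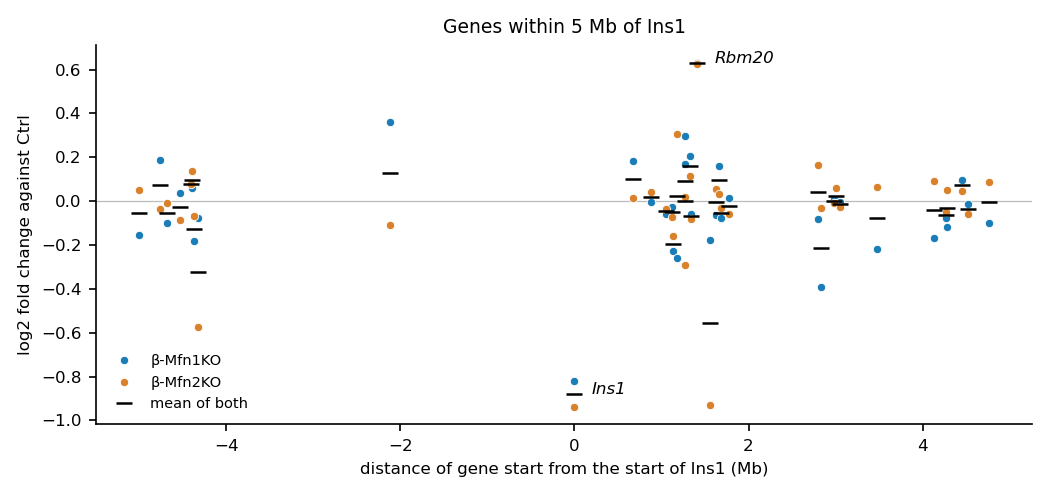
Log2 fold change against Ctrl in β-Mfn1KO (blue), β-Mfn2KO (orange) and their mean (black bars) for the 38 genes averaging 20 or more normalized counts within 5 Mb of Ins1, by the distance of their start from that of Ins1. Ins1 and Rbm20, 1.41 Mb apart, stand off from genes that lie between them, whose means range from −0.19 to 0.16.

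The other 4 genes with an adjusted p under 0.05 were clearly lower in a single line only. Each of them differed between the lines in the test of the lines against each other. Mfn1 stood at 1518 to 1807 normalized counts in Ctrl (median 1693), at 770, 621, 631 and 674 in β-Mfn1KO and at 1712, 1711, 1683, 1807 and 1693 in β-Mfn2KO. Only β-Mfn1KO lay outside the range of Ctrl. It had −0.63 in the mean of both lines (SE 0.08, adjusted p = 0.00096) and differed between the lines by 1.35 (SE 0.11, adjusted p = 2.6e-07). Mfn2 stood at 3089 to 4373 in Ctrl (median 3252), at 4399, 3869, 4607 and 4535 in β-Mfn1KO and at 1532, 1586, 1688, 1474 and 1607 in β-Mfn2KO. It was below every Ctrl library in β-Mfn2KO, while 3 of 4 β-Mfn1KO libraries exceeded the highest Ctrl library. Against Ctrl, Mfn2 had 0.31 (SE 0.08, adjusted p = 0.433) in β-Mfn1KO and −1.15 (SE 0.08, adjusted p = 1.1e-08) in β-Mfn2KO. The mean of both lines gave −0.42 (SE 0.06, adjusted p = 0.0083), and the lines differed by −1.46 (SE 0.08, adjusted p = 3.9e-10). The targeted mRNA was therefore low where the labels say so.

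mt-Nd6, a complex I subunit and the one mRNA encoded on the light strand of mtDNA, was at 12490 to 19070 normalized counts in Ctrl (median 16880). In β-Mfn1KO it was at 16030, 16000, 14900 and 14270, and in β-Mfn2KO at 7329, 7528, 6787, 8930 and 8113. The β-Mfn1KO libraries fell within the range of Ctrl, and all β-Mfn2KO libraries lay below it. The mean of both lines gave −0.58 (SE 0.07, adjusted p = 0.00096), made up of −0.09 (SE 0.09) in β-Mfn1KO and −1.07 (SE 0.09) in β-Mfn2KO, and the lines differed by −0.98 (SE 0.10, adjusted p = 6.0e-06). mt-Nd5 overlaps it on the opposite strand, so reads of both cannot be told apart without strand.

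Eno1b, a copy of the glycolytic enzyme gene Eno1, was called lower through β-Mfn1KO alone. It stood at 14.0, 19.3, 14.9 and 33.3 normalized counts there, and at 4643, 4811, 4843, 4461 and 3646 in β-Mfn2KO. In Ctrl it was at 29.1 in replicate 1 and at 2450 to 5821 in the others, so 1 Ctrl library lay with β-Mfn1KO. The mean of both lines gave −3.61 (SE 0.56, adjusted p = 0.0083), and −3.87 without Ctrl replicate 1 (adjusted p = 3.9e-09), with a difference between the lines of 7.78 (SE 0.91, adjusted p = 1.3e-04). Without β-Mfn1KO replicate 2 or 3 its adjusted p was 0.0513 and 0.0587, and it was then not called. Of its 75-base stretches 69.6% also occur in Eno1, so the counts of both are uncertain. Eno1 itself stood at 8177 to 11140 in β-Mfn1KO and 4494 to 5961 in β-Mfn2KO, and in Ctrl at 11680 in replicate 1 and 4815 to 8172 in the others. The lines differed in Eno1 by −0.998 (SE 0.20, adjusted p = 0.027) and the mean of both gave 0.07 (SE 0.16).

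As a description of how far the lines parted, β-Mfn2KO against β-Mfn1KO, which shares no Ctrl library, gave 50 called genes (0.175%), 16 higher (0.0559%) and 34 lower in β-Mfn2KO, and 3733 genes at an unadjusted p under 0.05 (13%). Besides the 4 genes above, the most clearly different ones were Cldn11, a tight-junction claudin (−5.35, adjusted p = 1.8e-04), Zfp990, a zinc-finger gene (7.58, adjusted p = 2.9e-04), mt-Co3, a complex IV subunit (−0.79, adjusted p = 7.0e-04), Miip (−1.47, adjusted p = 8.1e-04), Masp2, a complement protease (5.77, adjusted p = 0.0017), and Pard6g, a cell polarity protein (0.64, adjusted p = 0.0044). Several of these lie beside a targeted gene. A gap of 1.37 Mb separates Cldn11 from Mfn1, and gaps of 0.7, 2.33 and 2.33 Mb separate Masp2, Zfp990 and Eno1 from Mfn2, to which Miip lies closer still. Several also varied widely within Ctrl. Cldn11 was at 49.1 and 71.9 normalized counts in Ctrl replicates 4 and 2 and at 766 to 1634 in the others, against 1324 to 2084 in β-Mfn1KO and 28.8 to 53.6 in β-Mfn2KO. Zfp990 was at 0 in Ctrl replicate 1 and 137 to 368 in the others, at 0 to 4.97 in β-Mfn1KO and at 223 to 354 in β-Mfn2KO. Masp2 was at 2.91 in Ctrl replicate 1 and 24.9 to 93.3 in the others, and Miip at 140 to 331 over all Ctrl libraries. Since Zfp990 and Masp2 were at 0 in 3 of 4 β-Mfn1KO libraries each, the size of their fitted differences depends on the prior count. In the mean of both lines Zfp990 had −3.31 (adjusted p = 0.104), and without Ctrl replicate 1 it had −3.57 (adjusted p = 2.6e-06) and was called.

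The 13 mRNAs encoded by mtDNA, all subunits of the respiratory chain or ATP synthase, were mostly lower in the mean of both lines. Of the 13, 1 passed the adjusted test (mt-Nd6) and 11 were lower at an unadjusted p under 0.05, beside 1.95% of all genes, with a median log2 fold change of −0.38 beside 0.00 over all genes. The next were mt-Nd5 (−0.55, SE 0.11, adjusted p = 0.193), the complex IV subunit mt-Co1 (−0.38, SE 0.08, adjusted p = 0.364) and the ATP synthase subunit mt-Atp6 (−0.35, SE 0.08, adjusted p = 0.364). The pseudogene Gm28661, all of whose 75-base stretches occur in mtDNA genes (100%), had −0.47 (adjusted p = 0.364). With DESeq2 these genes passed an adjusted p of 0.05. It was 0.00363 for mt-Nd5, 0.00582 for mt-Co1, 0.00798 for mt-Atp6, 0.0106 for mt-Co3 and 0.00898 for Gm28661. Their DESeq2 log2 fold changes, from −0.55 (mt-Nd5) to −0.35 (mt-Atp6), were under the 1.5-fold threshold of 0.585, so none of them was called there. In edgeR mt-Nd5 also passed without Ctrl replicate 6 (−0.62, adjusted p = 0.0297). This lower mean rested on β-Mfn2KO. The median was −0.06 in β-Mfn1KO and −0.68 in β-Mfn2KO, and 10 of 13 differed between the lines at an adjusted p under 0.05, beside 0.335% of all genes. Their share of all counts was 1.86 ± 0.114% in Ctrl (SD, n = 6), 1.78 ± 0.180% in β-Mfn1KO (SD, n = 4) and 1.15 ± 0.0438% in β-Mfn2KO (SD, n = 5). The mean of both lines minus Ctrl was −0.396 points (exact permutation p = 0.0324 over 630630 assignments), while β-Mfn2KO minus β-Mfn1KO was −0.626 points (p = 0.0079, the smallest that the exact permutation test over 126 splits allows). The pooled value did not hold under every library: leaving out 1 library at a time gave p = 0.0237 to 0.0765 in the exact permutation test, past 0.05 in 3 cases. These were p = 0.0547 without Ctrl replicate 1, p = 0.0565 without Ctrl replicate 4 and p = 0.0765 without β-Mfn1KO replicate 4, each in the exact permutation test.

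**Figure D4:**
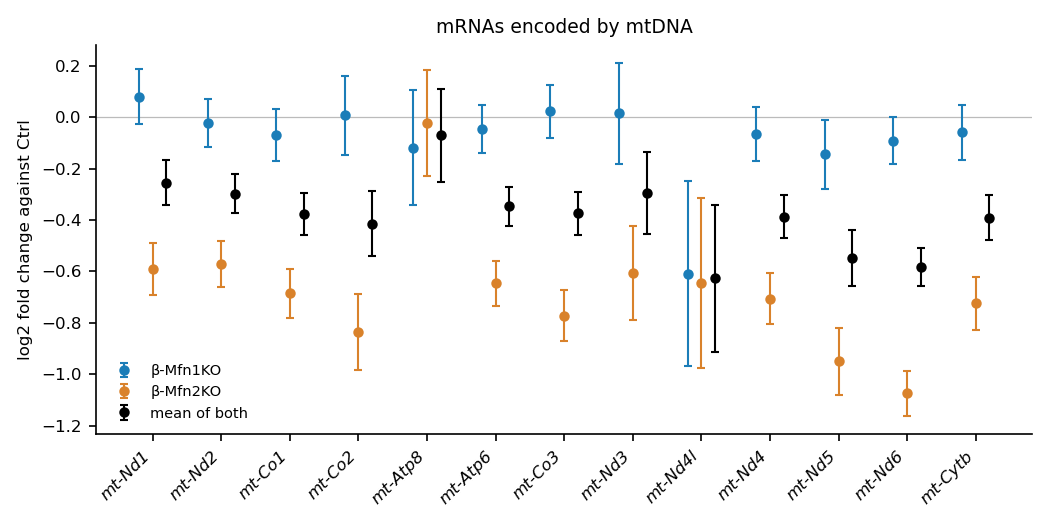
Log2 fold change against Ctrl of the 13 mRNAs encoded by mtDNA, in the order of the mitochondrial genome, in β-Mfn1KO (blue), β-Mfn2KO (orange) and their mean (black), with bars of 1 SE. The medians are −0.06, −0.68 and −0.38, so the mean mostly lies between a line near 0 and a line well below it, except for mt-Atp8 and mt-Nd4l, where the bars of both lines overlap.

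Besides Rbm20, the mRNAs of smallest adjusted p among the higher ones were not called. The 10 lower genes of smallest adjusted p also held Zfp990 (adjusted p = 0.104) and the mtDNA pseudogene Gm28661 (adjusted p = 0.364). All 75-base stretches of Gm28661 occur in mtDNA genes, so its lower counts cannot be assigned to a nuclear gene. Masp2 was named for its difference between the lines. In the mean of both lines Masp2 had −2.19 (SE 0.57, adjusted p over 0.9), with −5.07 in β-Mfn1KO and 0.70 in β-Mfn2KO. Further lower nuclear genes were not named, since mtDNA genes filled places of the rule. Cd59a, which shields cells from complement, stood at 302 to 910 normalized counts in Ctrl (median 488), at 952, 1169, 1085 and 2212 in β-Mfn1KO and at 1078, 800, 713, 892 and 923 in β-Mfn2KO. The groups overlapped through Ctrl replicates 1 and 6. In the mean of both lines it had 0.97 (SE 0.23, adjusted p = 0.517). Spock1, a matrix proteoglycan, stood at 1781 to 2673 in Ctrl (median 2287), at 2766, 2483, 2712 and 2791 in β-Mfn1KO and at 3941, 4215, 2980, 3147 and 2806 in β-Mfn2KO, or 0.44 on the log2 scale (SE 0.11, adjusted p = 0.676). Here 8 of 9 knockout libraries were above the highest Ctrl library. Hs3st2, a heparan sulfate sulfotransferase, had 1.11 (SE 0.29), the membrane-associated guanylate kinase gene Mpp6 had 0.30 (SE 0.08), and the homeobox gene Cdx4 had 0.52 (SE 0.15), each with an adjusted p over 0.9. The rule also named the pseudogene Gm15710 (1.31, SE 0.38), which lies within the highly counted Uso1, and the olfactory receptor gene Olfr330 (0.80, SE 0.23), whose change was 0.26 in β-Mfn1KO and 1.33 in β-Mfn2KO. Gm13657 had a mean of 0 normalized counts in Ctrl, 4.14 in β-Mfn1KO and 5.02 in β-Mfn2KO.

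Genes whose groups did not overlap were also counted, as a description. How many genes chance alone would separate was not tested, so the count lends no support to the calls. Among 15019 genes averaging 20 or more normalized counts, all 9 knockout libraries lay on one side of all 6 Ctrl libraries for 5 (0.0333%), above them for 3 (0.02%) and below them for 2 (0.0133%). These were Ins1 and Rbm20, and 3 genes named here because their values were seen: Gm37827 (−0.65, SE 0.23), Wdr83os (0.19, SE 0.07) and Atp6v1c1, a subunit of the vesicular proton pump (0.11, SE 0.05), each with an adjusted p over 0.9. A single gene had 0 counts in all Ctrl libraries and at least 1 in all 9 knockout libraries, the processed pseudogene AC168306.1, with 16 counts in all, at least 2.07-fold above the floor of 3 counts over the Ctrl group. No gene had the reverse pattern.

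Gene lists of pathways and cell types showed no member besides these. Over the 20 lists other than the targeted genes and the mtDNA mRNAs, 389 genes were measured, 0 had an adjusted p under 0.05 by edgeR's quasi-likelihood test and 6 (1.54%) an unadjusted one, 5 higher and 1 lower, beside 3.60% of all genes. None of the members named below passed an adjusted p of 0.05 with DESeq2 or another alternative.

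β-cell identity was level in this comparison. None of 24 identity genes had an unadjusted p under 0.05 (median 0.00), with Iapp, the amyloid peptide released with insulin, at 0.09 (SE 0.08), the cation channel gene Trpm5 at −0.16 (SE 0.14) and the transcription factor gene Nkx2-2 at 0.07 (SE 0.06). Nor did any of 20 secretory granule genes (median 0.05), among them the granule chaperone gene Scg5 (0.12, SE 0.06), Vgf (0.25, SE 0.18) and the exocytosis gene Snap25 (0.06, SE 0.05). Of 20 genes that β-cells normally keep silent, Cd81 had 0.20 (SE 0.08) and Cxcl12 −2.18 (SE 0.98), both at an unadjusted p under 0.05, and Igfbp4 had −0.83 (SE 0.66). Cxcl12 and Igfbp4 moved with the stromal markers given below, and turned to 1.33 and 0.52 without Ctrl replicate 6.

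Mitochondrial gene lists were as level. Of 17 dynamics genes 0 had an unadjusted p under 0.05 (median 0.04), with the fission receptor gene Mff at 0.08 (SE 0.04), the phospholipase gene Pld6 at 0.44 (SE 0.28) and Mtfp1, a fission protein of the inner membrane, at 0.09 (SE 0.06), the last with a difference between the lines of −0.38 (adjusted p = 0.0196). Of 25 genes of mtDNA maintenance 1 did (median 0.03). This was Dguok, a mitochondrial nucleoside kinase, with 0.10 (SE 0.05). The pyrimidine carrier gene Slc25a33 had 0.26 (SE 0.13), the helicase gene Twnk −0.11 (SE 0.06) and the mtDNA packaging factor gene Tfam, named here outside the rule, 0.00 (SE 0.05). Of 19 mitophagy genes measured, 1 had an unadjusted p under 0.05, the receptor gene Optn (0.12, SE 0.06). The deubiquitinase gene Usp30 had −0.08 (SE 0.04) and the autophagy gene Atg7 −0.08 (SE 0.05). Of 19 antioxidant genes it was Prdx3, the mitochondrial peroxiredoxin (0.15, SE 0.05), at 1473 to 1722 in Ctrl, 1704 to 1860 in β-Mfn1KO and 1636 to 1807 in β-Mfn2KO. Gclm had 0.09 (SE 0.05) and the mitochondrial superoxide dismutase gene Sod2 0.07 (SE 0.04).

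Stress lists also lacked a shared change. In the list of the endoplasmic reticulum stress response the median was 0.205 in β-Mfn1KO and −0.136 in β-Mfn2KO. Of its 22 genes 0 had an unadjusted p under 0.05 in the mean of both lines (median 0.03), with Edem1 at 0.10 (SE 0.07), Dnajb9 at 0.18 (SE 0.14) and Pdia3 at 0.10 (SE 0.10). Of 25 genes of the integrated stress response, which ATF4 drives, 0 did (median −0.01), with the secreted factor gene Gdf15 at 0.23 (SE 0.15), Ddit3 at 0.38 (SE 0.25) and Atf5 at 0.10 (SE 0.07). Of 25 genes of the p53 and DNA damage response 0 did, with Polk at −0.17 (SE 0.09), Ercc5 at −0.09 (SE 0.06) and Sesn2 at 0.08 (SE 0.07). Of 22 cell cycle genes 0 did, with Plk1 at 0.54 (SE 0.39), Mcm2 at −0.08 (SE 0.07) and Tyms at 0.13 (SE 0.10), and of 21 immediate early genes 0 did, with Fosl1 at 0.53 (SE 0.28), Egr2 at −0.46 (SE 0.39) and Klf2 at 0.32 (SE 0.27). The interferon list had the highest median, 0.18 over 25 genes. Over the 24 that averaged 20 or more normalized counts, the median was −0.01 in β-Mfn1KO and 0.40 in β-Mfn2KO. Summed over the list, the level was 343 to 435 counts per M of the TMM-scaled library total in Ctrl (median 382). It was 331 to 421 in β-Mfn1KO (median 392) and 347 to 823 in β-Mfn2KO (median 418), so the groups overlapped. No gene of the list differed between the lines at an adjusted p under 0.05, and 1 had an unadjusted p under 0.05 in the mean of both. This was Mx1, an antiviral GTPase (0.85, SE 0.30), at 27.4 to 131 normalized counts in Ctrl, 58.2 to 162 in β-Mfn1KO and 75.4 to 196 in β-Mfn2KO, with overlap of all groups. B2m had 0.33 (SE 0.19) and the chemokine gene Cxcl10 0.62 (SE 0.37).

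**Figure D5:**
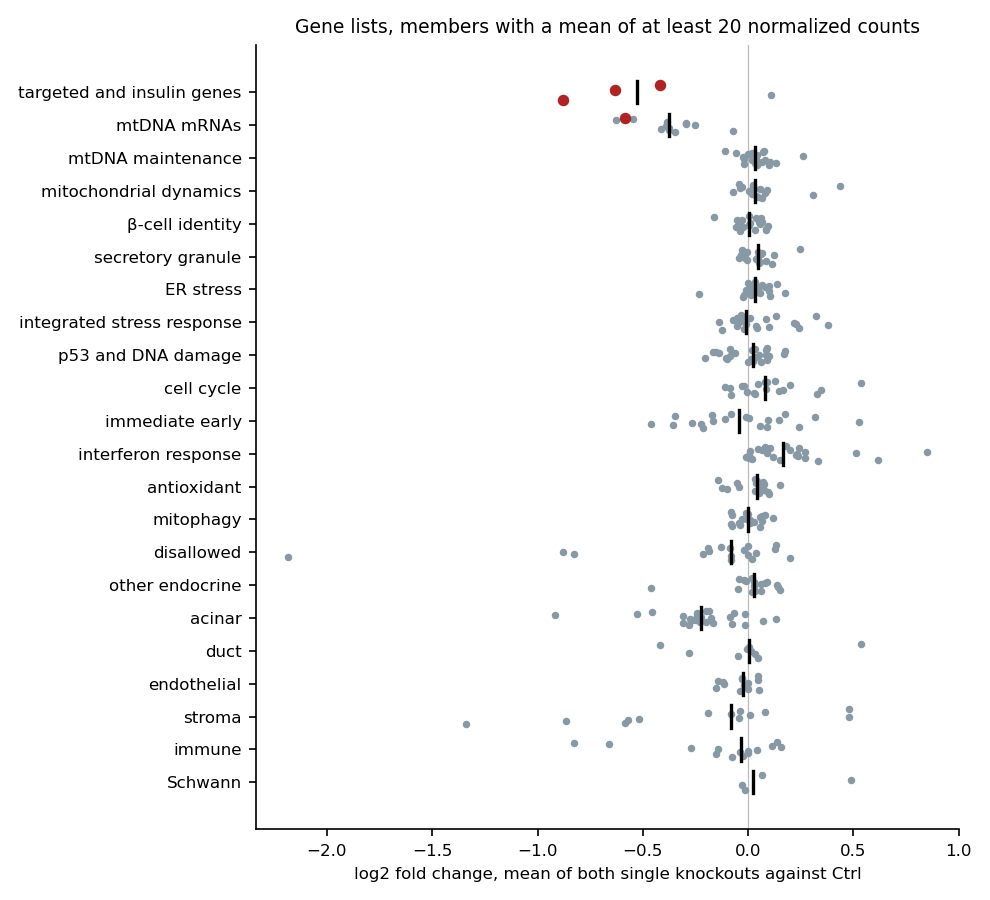
Log2 fold change of the mean of both single knockouts against Ctrl for the members of 22 gene lists that averaged 20 or more normalized counts, with 1 point per gene and a bar at the median of each list. Red points have an adjusted p under 0.05 and fall in the list of targeted and insulin genes and, once, in that of mtDNA mRNAs, where the median is −0.38.

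Markers of the other cells of an islet preparation were counted in the same way. None of the members of these 7 lists had an unadjusted p under 0.05. Of 17 genes of other endocrine cells the median was 0.03, with ghrelin (Ghrl) at −0.46 (SE 0.36), Gc at 0.15 (SE 0.13) and Irx1 at 0.14 (SE 0.13). Of 30 acinar genes 25 averaged 20 or more normalized counts. Their median log2 fold changes were −1.61 in β-Mfn1KO and 1.16 in β-Mfn2KO. The summed level of the acinar list was 411 to 2440 CPM in Ctrl, 220 to 853 in β-Mfn1KO and 641 to 8720 in β-Mfn2KO. CPM are counts per M of the TMM-scaled library total. The medians of these sums were 1270, 451 and 834. Single genes had wide errors, with the mean of both lines at −0.92 (SE 1.14) for Prss3, −2.12 (SE 3.38) for Prss1 and −0.97 (SE 1.45) for Rbpjl. With the acinar level as a covariate Ins1 had −0.88 (adjusted p = 0.0042) and Rbm20 0.62 (adjusted p = 0.0042). Of 12 duct genes the median was −0.03, with Sox9 at −0.42 (SE 0.29) and Spp1 at 0.54 (SE 0.39). Onecut1 had 0 counts in β-Mfn1KO, so its fitted −2.83 (SE 1.37) depends on the prior count. Of 14 endothelial genes it was −0.02, with Esam at −0.12 (SE 0.09), Pecam1 at −0.14 (SE 0.11) and Emcn at −0.15 (SE 0.13). Stromal genes summed to 36.4 to 367 CPM in Ctrl (median 55.1), 31.1 to 65.7 in β-Mfn1KO (median 43.8) and 37.9 to 392 in β-Mfn2KO (median 58.6), and their part in the values of Cxcl12 and Igfbp4 was not tested. Acta2 had −1.34 (SE 1.02), Col1a2 −0.87 (SE 0.70) and Col3a1 −0.57 (SE 0.61), which turned to 1.41, 0.87 and 0.65 without Ctrl replicate 6. Immune genes summed to 153 to 743, 165 to 211 and 153 to 994 CPM in Ctrl, β-Mfn1KO and β-Mfn2KO, with the antigen-presentation gene H2-Aa at 0.16 (SE 0.12). The T-cell receptor gene Cd3e had 0 counts in all Ctrl libraries and means of 0.698 normalized counts in β-Mfn1KO and 1.19 in β-Mfn2KO, and no fold is given. Schwann cell genes had a median of 0.10 over 8, with Ngfr at 0.49 (SE 0.51), S100b at −0.49 (SE 0.56) and Cdh19 at 0.54 (SE 0.73).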

How the data were processed

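Islet RNA was sequenced as 151-base paired reads in 20 libraries. According to the methods of the study and the submitters' processing notes, the authors trimmed reads with cutadapt 2.3, checked them with FastQC 0.11.8, aligned them to GRCm38 with STAR 2.6.1b and estimated counts per gene with RSEM 1.3.1. The deposited counts are whole numbers without normalization, and 0 sample columns were left out. The depth-normalized table was not used here. The strand setting is not given in the sources used here.

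The 28632 genes went unfiltered into the quasi-likelihood model of edgeR 4.0.16 (glmQLFit, glmQLFTest, TMM scaling, R 4.3.3), in which all 20 libraries shared the dispersion and each group had a coefficient, after a check of the fit on simulated data. The main contrast weighted each line by 0.5 against Ctrl. Comparisons of each line with Ctrl share the Ctrl libraries. Standard errors were derived from the F statistic and the fold change. Exact permutation tests, two-sided on the absolute difference, served for single values (Python 3.11.15, NumPy 2.4.6). The study gives the number of mice per group as that of the libraries. The Wilson intervals of the insulin share and the floor for a gene without Ctrl counts cover counting error only. Intervals of fold changes were built from the standard errors of the fit, so they include the spread between libraries. Gene positions and transcripts come from GENCODE mouse release M21.

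The contrast, the gene lists and the genes named were chosen with earlier results of these data known. The rule named Mfn1, Mfn2, Ins1 and Ins2, called genes averaging 20 or more (up to 15 a direction), the 10 genes of smallest adjusted p in each direction, genes within 5 Mb of Ins1, Mfn1 or Mfn2 with an adjusted p under 0.05, the 3 members of smallest p in each of 22 lists, and the 10 called genes of smallest adjusted p between the lines. Eno1, Tfam, Smc3, Pdcd4 and Gm16299 were added. Some items that the rule named are not reported here. Alternatives were other scalings, a low-count filter, the 15 libraries alone, sex, replicate number or acinar level as covariates, libraries under 40 M counts, DESeq2 1.42.0, all 9 knockout libraries as 1 group, and leaving out each library. Replicate numbers were not taken to pair libraries, since not every pair passed a correlation of 0.1. Deviations from group means correlated by 0.119 on average over 13 same-numbered pairs (−0.167 to 0.324, 7 of them over 0.1) and by −0.0235 over other pairs.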

Additional observations from a re-analysis of the deposited data

Results flagged for a closer look

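A library far from the others of its group was looked for in 88 sets, each 1 gene or share within 1 group of 4 to 6 libraries. Of these sets 7 held one. Chance alone marks about 1 in 20 sets of normally spread values, which sets of mostly 0 counts are not. The sets share libraries, and Eno1 and Eno1b share sequence, so they are not independent. In β-Mfn1KO, Zfp990 was at 4.97 normalized counts in replicate 3 and 0 in the others, and Masp2 at 5.58 in replicate 1 and 0 in the others. In β-Mfn2KO, Mfn1 was at 1807 in replicate 4 against 1683 to 1712, and Masp2 at 40.4 in replicate 3 against 84.2 to 98.7. Replicate 5 of β-Mfn1/2DKO stood apart for 3 genes. It had 1915 normalized counts of Eno1b against 4433 to 4788, 6063 of Eno1 against 4247 to 4503, and 2596 of Spock1 against 3245 to 3464.

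The lines differed from each other, by the test of β-Mfn2KO minus β-Mfn1KO in edgeR at an adjusted p under 0.05, for 16 of the 87 genes named. Over all 28632 genes 96 did (0.335%). The rule named 10 of the 16 because they passed this same test, so their number is no result about the named genes. The values are given here as log2 differences. The targeted genes had 1.35 (Mfn1) and −1.47 (Mfn2). The genes higher in β-Mfn2KO were Eno1b (7.78), Zfp990 (7.58), Masp2 (5.77) and Pard6g (0.64). Those lower were Cldn11 (−5.35), Miip (−1.47), Eno1 (−0.998), Mtfp1 (−0.38) and the mtDNA genes and pseudogene mt-Nd6 (−0.98), mt-Nd5 (−0.80), mt-Co3 (−0.79), Gm28661 (−0.68), mt-Co1 (−0.62) and mt-Atp6 (−0.60). The share of counts from mtDNA mRNAs differed by −0.626 percentage points.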

How the results depend on the processing

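The call of Ins1 held in every alternative run. The count of genes called for the mean of both lines, 4, became 7 with DESeq2, 2 with all 9 knockout libraries as 1 group (Ins1 and Rbm20), and 3 to 6 when 1 library was left out. The 2 genes shared by both lines became 1 to 2 when 1 library was left out, with Rbm20 lost without Ctrl replicate 5 or 6. With libraries under 40 M counts alone, 6 genes were called and 3 were shared by both lines, 1 higher and 2 lower. The 50 genes called between the lines became 124 with DESeq2 and 25 to 106 when 1 library was left out, lowest without β-Mfn1KO replicate 1 and highest without its replicate 3. The lower share of mtDNA mRNAs ran from −0.4255 to −0.3546 percentage points when 1 library was left out.

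With the replicate number as a block, 1 gene was shared by both lines, since Rbm20 had 0.57 (adjusted p = 0.0027, under the fold threshold), 87 were called between the lines, and the share of mtDNA mRNAs was −0.427 points (exact permutation p = 0.0868). In edgeR under the block mt-Nd5 passed (−0.62, adjusted p = 0.0182). Signs turned under the block for Cxcl12 (1.13), Igfbp4 (0.30), Acta2 (0.80), Col1a2 (0.64) and Col3a1 (0.51). With all 9 as 1 group Cldn11 had 0.0056. Leaving out 1 library gave −3.40 to 1.33 for Cxcl12, −1.70 to 0.52 for Igfbp4, −3.28 to 1.41 for Acta2, −1.75 to 0.87 for Col1a2 and −1.12 to 0.65 for Col3a1, each turned by Ctrl replicate 6. It gave −0.034 to 0.75 for Cdh19. The cause of these turns was not tested. Over 85 named genes, 2090 of 2118 fits kept the sign and the side of the adjusted p threshold. The fold threshold was not part of this count, so the fits in which Rbm20 lost its call are among those kept. Most of these genes did not pass the adjusted p threshold in the main fit, so the count is no measure of how firm the calls are. With 4 to 6 libraries a group, changes under 1.5-fold could be missed, most of all in genes of few counts.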
